A study of Mus musculus with 9 samples.

Results

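Phosphofructokinase genes were followed in mouse brain tumor stem cells (BTSC) with and without a knockout of Gpd1. The 6 genes described were taken by symbol from the 21899 genes of the normalized expression table. They are the 3 subunit genes of phosphofructokinase 1 (Pfkm, Pfkl and Pfkp) and 3 genes of the enzymes that make and break fructose-2,6-bisphosphate (Pfkfb2, Pfkfb3 and Pfkfb4). They were chosen because of their differences between knockout (KO) and control libraries, so those differences are given as values with no test. The comparison between the guides did not choose the genes and was tested.

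Poly(A) RNA was sequenced from 9 libraries in 3 groups of 3. The sgRNA1 KO and sgRNA2 KO groups were BTSC in which Gpd1, the gene of cytosolic glycerol-3-phosphate dehydrogenase, was cut by Cas9 with 1 of 2 guide RNAs. The guides were delivered in the lentiCRISPR vector by lipofection, the cells were selected with puromycin, and each KO culture was expanded from a single cell, so a KO library stands for 1 clone. The control group was BTSC with no knockout, and whether those cultures were transfected, selected or cloned is not stated in the labels. Where the controls are repeat cultures of 1 line, p-values measure the spread between these libraries, part of which may be technical. Gpd1 stood at 3299, 1347 and 21351 normalized counts in sgRNA1 KO libraries and at 10812, 10812 and 6945 in sgRNA2 KO libraries, against 25106, 26566 and 25836 in control. The value of 10812 is listed for both sgRNA2 KO libraries 1 and 2, and that of control replicate 3 equals the mean of the other controls, and whether these came about by chance was not tested. Between KO and control Gpd1 had a log2 difference of -1.99 and missed an adjusted p of 0.05 in limma (0.0516). Protein was not measured here, so loss of the enzyme in each clone was not tested. By the listed values the clone of sgRNA1 KO replicate 3 kept 82.6% of the mean control level of Gpd1 mRNA. That library and sgRNA2 KO replicate 1 lay nearest to control across genes, and results that turn on them are also given without both. Normalized counts summed to between 39781901 and 42975283 per library.

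Phosphofructokinase 1 adds a second phosphate to fructose-6-phosphate, the committed step of glycolysis, upstream of the dihydroxyacetone phosphate that Gpd1 reduces. It works as a tetramer built from a muscle-type (Pfkm), a liver-type (Pfkl) and a platelet-type (Pfkp) subunit, which differ in how they answer ATP, citrate and fructose-2,6-bisphosphate. The bifunctional PFKFB enzymes set the level of fructose-2,6-bisphosphate, the strongest activator of phosphofructokinase 1. In brain tumors the platelet-type subunit and PFKFB3 and PFKFB4 have been studied as drivers of aerobic glycolysis.

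Promoter sequences are shown for both genes with a higher and both phosphofructokinase 1 genes with a lower level in KO, so that the start regions of genes that moved opposite ways can be read side by side. Each runs from 250 bases before to 50 bases after a RefSeq transcription start in build GRCm38.p6, and for genes with several starts the one richest in G and C is given. Capitals mark 4 short motifs on either strand. These are ACGTG (or CACGT) and GCGTG (or CACGC), both cores of the hypoxia response element, CACGTG, the E-box bound by Myc family proteins, and GGGCGG (or CCGCCC), the GC box bound by Sp factors. A run of capitals can hold more than 1 motif, and each CACGTG also counts as an ACGTG and as a CACGT.
Pfkm, higher in KO, chr15:98108306-98108605, plus strand: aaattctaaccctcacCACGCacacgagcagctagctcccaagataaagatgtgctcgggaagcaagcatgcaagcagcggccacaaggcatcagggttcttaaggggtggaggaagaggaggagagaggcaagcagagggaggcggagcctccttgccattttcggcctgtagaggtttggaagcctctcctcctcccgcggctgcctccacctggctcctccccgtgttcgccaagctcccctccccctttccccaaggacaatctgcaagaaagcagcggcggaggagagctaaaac
Pfkfb2, higher in KO, chr1:130715772-130716071, minus strand: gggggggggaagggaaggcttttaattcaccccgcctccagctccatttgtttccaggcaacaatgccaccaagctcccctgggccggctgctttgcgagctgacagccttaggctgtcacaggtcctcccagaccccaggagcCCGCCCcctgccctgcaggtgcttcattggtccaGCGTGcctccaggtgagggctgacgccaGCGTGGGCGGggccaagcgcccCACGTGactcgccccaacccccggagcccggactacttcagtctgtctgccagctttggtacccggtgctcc
Pfkp, lower in KO, chr13:6648722-6649021, minus strand: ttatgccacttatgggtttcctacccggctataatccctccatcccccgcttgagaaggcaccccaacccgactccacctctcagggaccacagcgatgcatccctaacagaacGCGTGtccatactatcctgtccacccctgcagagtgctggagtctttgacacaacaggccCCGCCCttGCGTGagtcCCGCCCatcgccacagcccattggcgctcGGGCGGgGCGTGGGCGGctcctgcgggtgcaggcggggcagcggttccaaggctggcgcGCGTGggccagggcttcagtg
Pfkl, lower in KO, chr10:78009758-78010057, minus strand: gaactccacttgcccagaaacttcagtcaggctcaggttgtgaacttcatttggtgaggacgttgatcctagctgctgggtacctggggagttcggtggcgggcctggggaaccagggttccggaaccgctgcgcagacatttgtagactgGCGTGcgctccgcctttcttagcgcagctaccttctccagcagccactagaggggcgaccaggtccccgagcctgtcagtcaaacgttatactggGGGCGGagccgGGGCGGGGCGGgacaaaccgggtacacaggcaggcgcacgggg
Pfkp and Pfkl have 1 listed start each, with 64.7% and 62.3% G and C, against a median of 52.7% over 32851 RefSeq promoter windows of the same length. The windows of Pfkm (59.0%) and Pfkfb2 (66.0%) were picked for their G and C, and those of their other starts held 36.7%, 53.7% and 53.0% in Pfkm and 53.0% and 46.0% in Pfkfb2. The GC box was found 4 times in Pfkp, 3 times in Pfkl, 2 times in Pfkfb2 and 0 times in Pfkm, and 35.7% of all windows hold it. The GCGTG core was found 4 times in Pfkp, 2 times in Pfkfb2 and 1 time each in Pfkl and Pfkm, and 32.4% of all windows hold it. Of the 4 windows, Pfkfb2 alone held the E-box, which 7.15% of all windows hold, and with it the ACGTG core, which 19.6% hold. Among the other Pfkm starts, the most upstream one holds the E-box and the next holds ACGTG. In the 4 windows printed, both lower genes thus held more GC boxes than both higher genes, a count over 4 windows with no test. The windows not printed held 3 and 2 GC boxes in Pfkfb3, whose clones went no common way, and 4 in Pfkfb4. The printed genes were picked by their direction, so nothing is read from this count, and a match to a few letters is not evidence of binding. The table has 1 value per gene, so it does not tell which start was used.

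Pfkm, which encodes the muscle-type subunit, had the highest level per kilobase of the phosphofructokinase 1 genes in all 9 libraries, and was higher in every KO library than in any control. It stood at 10903, 9724 and 9327 normalized counts in the sgRNA1 KO clones and at 7958, 8948 and 7342 in the sgRNA2 KO clones, against 5171, 4793 and 4872 in control. The lowest KO library was thus well above the highest control. Its mean was 9034 ± 1272 in KO (SD, n = 6) and 4945 ± 199 in control (SD, n = 3), a ratio of 1.83 and a log2 difference of 0.86 (SE 0.13). The KO libraries of Pfkm were close together, with an SD of 0.20 on the log2 scale against a median of 0.36 over all genes tested.

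Pfkp, which encodes the platelet-type subunit, was lower in every KO library than in any control. It stood at 245, 202 and 298 normalized counts in the sgRNA1 KO clones and at 377, 126 and 307 in the sgRNA2 KO clones, against 1911, 2520 and 2413 in control. The highest KO library, at 377, was thus far below the lowest control, at 1911. The mean was 259 ± 88.2 in KO (SD, n = 6) and 2281 ± 325 in control (SD, n = 3), a log2 difference of -3.20 (SE 0.31). KO libraries held between 5.52% and 16.5% of the mean control level. Ranked by log2 difference among 15827 genes tested, Pfkp was number 92 from the lowest and Pfkm number 2223 from the highest. In sgRNA1 KO replicate 3, the clone with 82.6% of control Gpd1 mRNA, Pfkp was at 13.1% of control and Pfkm at 189%.

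Pfkl, which encodes the liver-type subunit, was lower in all 6 KO libraries, by less and with more scatter. It stood at 1806, 1847 and 2173 normalized counts in the sgRNA1 KO clones and at 2702, 2100 and 1086 in the sgRNA2 KO clones, against 3204, 2857 and 2825 in control. The groups did not overlap, but sgRNA2 KO replicate 1 reached 91.2% of the control mean while sgRNA2 KO replicate 3 was at 36.7%. The mean was 1952 ± 532 in KO (SD, n = 6) and 2962 ± 210.2 in control (SD, n = 3), with a log2 difference of -0.65 (SE 0.24).

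Pfkfb2, the isoform best known from heart, where it is activated by phosphorylation, was higher in all 6 KO libraries. It stood at 1736, 1828 and 1241 normalized counts in the sgRNA1 KO clones and at 1222, 1677 and 1274 in the sgRNA2 KO clones, against 936, 815 and 910 in control. The groups did not overlap. The mean was 1496 ± 279 in KO (SD, n = 6) and 887 ± 63.7 in control (SD, n = 3), with a log2 difference of 0.74 (SE 0.16).

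Pfkfb3, whose enzyme has strong kinase and little phosphatase activity, went no common way across the clones. It stood at 3005, 5178 and 1518 normalized counts in the sgRNA1 KO clones and at 1429, 1568 and 5234 in the sgRNA2 KO clones, against 3303, 4316 and 4254 in control. Of the KO libraries, 2 were above all controls and 4 below all controls, and each guide had clones on both sides. The mean was 2989 ± 1814 in KO (SD, n = 6) and 3958 ± 568 in control (SD, n = 3), with a log2 difference of -0.62 (SE 0.46). Its SD on the log2 scale was 0.89 among KO libraries and 0.22 among controls, the widest in KO of the 5 genes tested.

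Pfkfb4, a hypoxia-inducible isoform in many tumors, was near the limit of detection. It had 0, 0 and 2 normalized counts in the sgRNA1 KO clones and 1, 0 and 0 in the sgRNA2 KO clones, against 8, 8 and 8 in control. Its sums were 3 over 6 KO libraries and 24 over 3 controls, a ratio per library of 0.0625 that rests on few counts. With a mean under 10 over the 9 libraries it was the 1 gene of the 6 that did not enter the fit across genes.

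Of the 5 genes that did, 4 did not overlap between KO and control, with Pfkm and Pfkfb2 above and Pfkp and Pfkl below. Non-overlap was common in these libraries, at 44.8% of all genes tested (21.1% with KO above and 23.8% with KO below), and 39.3% of all genes passed an adjusted p of 0.05 in limma between KO and control. As the genes were chosen on this contrast, nothing is read from their count. Without sgRNA1 KO replicate 3 and sgRNA2 KO replicate 1 the log2 differences were 0.89 for Pfkm, -3.43 for Pfkp, -0.83 for Pfkl, 0.87 for Pfkfb2 and -0.22 for Pfkfb3. In bulk RNA, fewer cells that express a gene and less of its RNA per cell cannot be told apart.

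**Figure D1:**
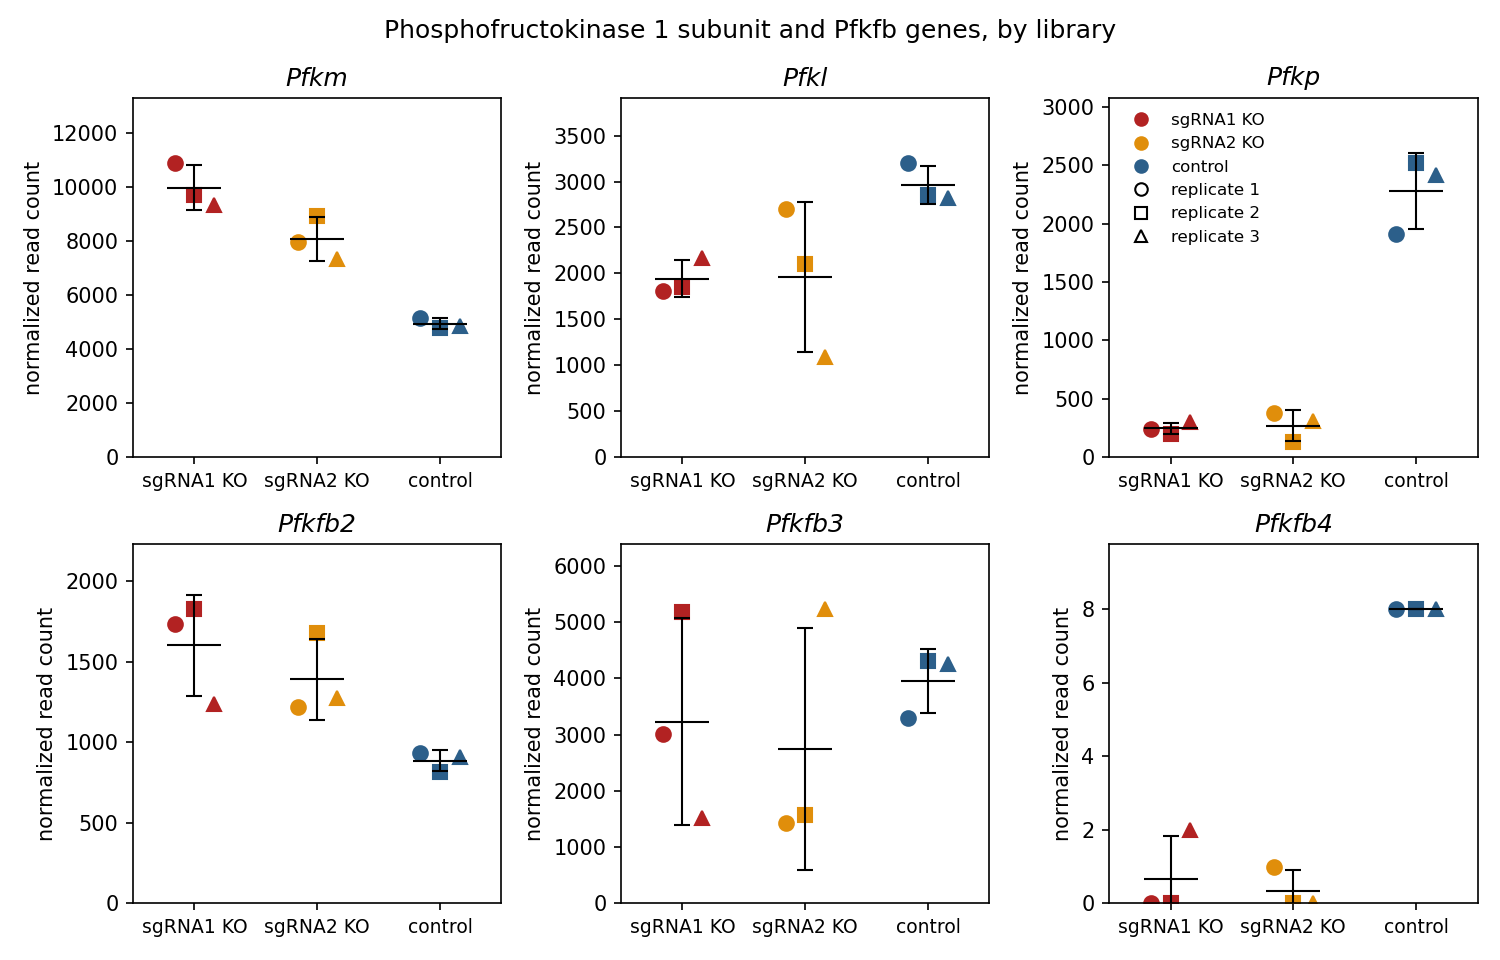
Normalized read count of the 6 genes in each library of sgRNA1 KO, sgRNA2 KO and control, with each axis starting at 0; horizontal bars are means and vertical bars SD (n = 3), clipped at 0 for Pfkfb4. Pfkm and Pfkfb2 lie above control and Pfkp, Pfkl and Pfkfb4 below it in all 6 KO libraries, while Pfkfb3 lies on both sides.

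The makeup of phosphofructokinase 1 mRNA was compared as shares of the summed level per kilobase of exon, using all exons of each gene merged in GENCODE M21. Pfkm took 91.9%, 90.9% and 88.9% of the sum in the sgRNA1 KO clones and 84.6%, 89.2% and 92.2% in the sgRNA2 KO clones, against 71.3%, 70.0% and 70.7% in control. Pfkl took between 6.83% and 14.4% in KO libraries, against 20.5% to 22.1% in control. Pfkp took between 0.313% and 0.999% in KO libraries, against 6.57% to 9.17% in control. The muscle-type gene thus already led in control, and in KO it made up nearly all of the sum. Mean shares were 89.6 ± 2.79% in KO and 70.7 ± 0.680% in control for Pfkm, 9.72 ± 2.71% and 21.2 ± 0.835% for Pfkl, and 0.661 ± 0.278% and 8.16 ± 1.39% for Pfkp (SD, n = 6 KO and 3 control).

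The size of the Pfkp share depends on the length used, since its merged exons span 13401 bases and its longest coding transcript 4145. By the length of the longest coding transcript, Pfkp made up 1.73 ± 0.711% in KO and 18.0 ± 2.81% in control, and Pfkm 84.2 ± 3.87% in KO and 56.1 ± 1.44% in control (SD, n = 6 and 3). Shares of each gene did not overlap between KO and control under either length. The summed level per kilobase of merged exon was 3017 ± 395 in KO (range 2384 to 3553) and 2095 ± 66.2 in control (range 2051 to 2171). By transcript length the sums were 3724 ± 471 in KO and 3062 ± 46.8 in control, and sgRNA2 KO replicate 3, at 2915, was then lower than any control. The higher Pfkm level therefore outweighed the lower Pfkl and Pfkp levels in 6 of 6 KO libraries by merged exons and in 5 of 6 by transcript length.

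Among the fructose-2,6-bisphosphate genes, Pfkfb1, the liver and muscle isoform, was added to complete the family. Pfkfb3 took between 44.7% and 77.7% of the summed level per kilobase of merged exon in KO libraries, against 72.1% to 78.8% in control. Pfkfb2 took between 19.7% and 49.8% in KO libraries, against 15.5% to 21.3% in control. The clone with the largest Pfkfb3 share, sgRNA2 KO replicate 3, had a Pfkfb2 share within the control range, and the other 5 had a larger one. Pfkfb1 took 6.34 ± 5.02% in KO and 5.75 ± 0.471% in control (SD, n = 6 and 3), and the difference turned to -2.53 percentage points without sgRNA1 KO replicate 3 and sgRNA2 KO replicate 1. Pfkfb4 took at most 0.0957% in any KO library, against 0.225% to 0.271% in control. Summed over the family, the level per kilobase was 633 ± 241 in KO and 687 ± 70.2 in control (SD, n = 6 and 3), and the groups overlapped.

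**Figure D2:**
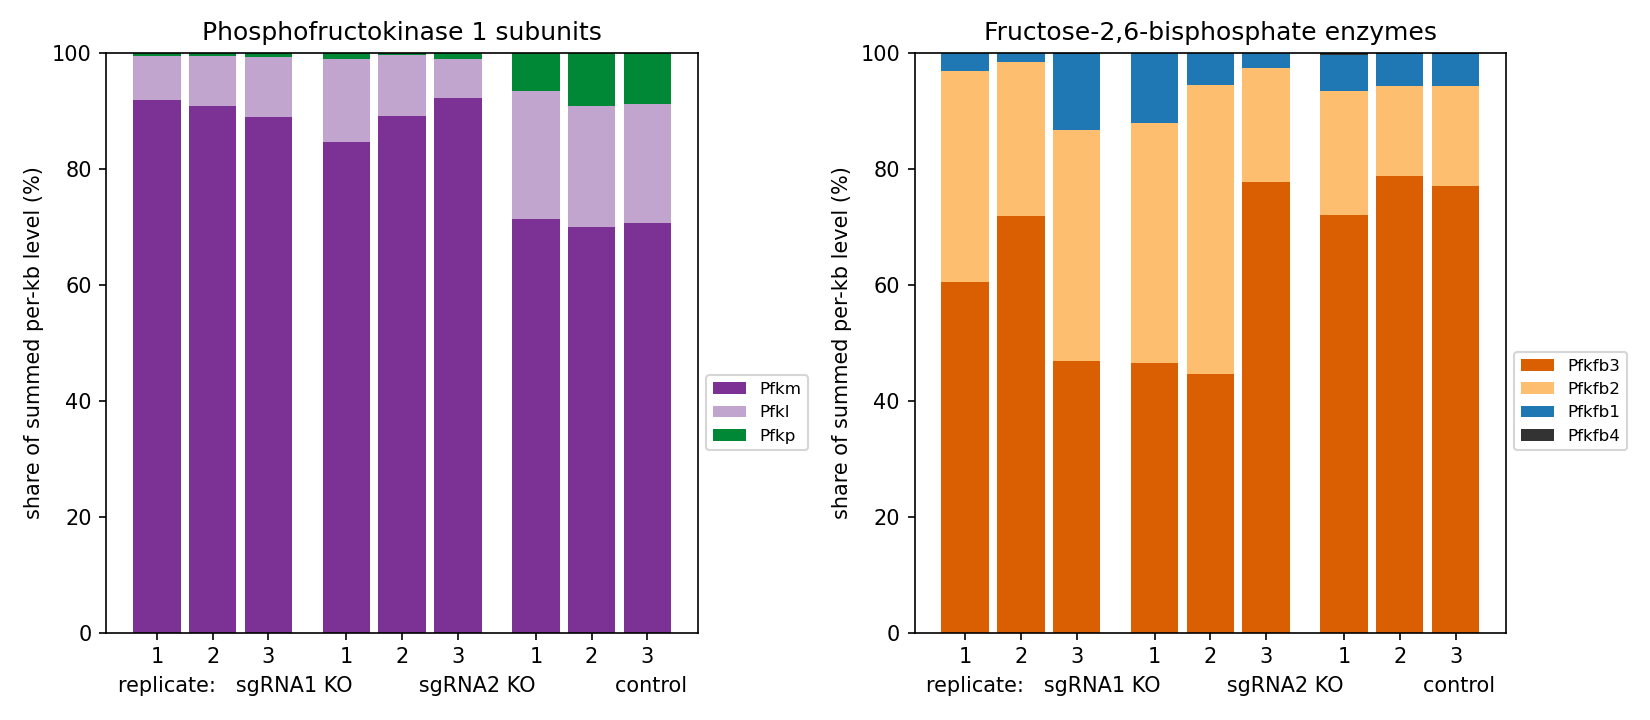
Share (%) of each gene in the summed level per kilobase of merged exon, for the 3 phosphofructokinase 1 subunit genes and for the 4 Pfkfb genes, with 1 stacked bar per library of sgRNA1 KO, sgRNA2 KO and control. Pfkm takes at least 84.6% in each KO library and at most 71.3% in each control, and the Pfkfb3 and Pfkfb2 shares vary widely among KO libraries.

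Ordered by mean level per kilobase of merged exon in KO, the genes ran Pfkm (2705), Pfkfb3 (395), Pfkl (292), Pfkfb2 (206), Pfkfb1 (31.7), Pfkp (19.3) and Pfkfb4 (0.103). In control the order was Pfkm (1481), Pfkfb3 (523), Pfkl (444), Pfkp (170), Pfkfb2 (122), Pfkfb1 (39.3) and Pfkfb4 (1.64). In control every Pfkp value was above every Pfkfb1 value, but in KO the ranges overlapped (Pfkp 9.40 to 28.1, Pfkfb1 15.4 to 56.3), so they could not be ordered there. Pfkfb3 and Pfkl could not be ordered either, since their ranges overlapped in KO (189 to 692 and 163 to 405) and in control (437 to 571 and 423 to 480). In KO the range of Pfkfb2 (168 to 252) overlapped both of theirs, so its place below them was not settled there.

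The guides were compared with each other to see whether the clones made with sgRNA1 and sgRNA2 differed in these genes. In limma with Benjamini-Hochberg adjustment over all 15827 genes, none of the 5 genes passed. The log2 difference of sgRNA1 KO over sgRNA2 KO was 0.31 for Pfkm (95% interval 0.04 to 0.57, adjusted p = 0.778). It was 0.08 for Pfkl (-0.57 to 0.73, adjusted p = 0.936 in limma), 0.00 for Pfkp (-0.84 to 0.85, adjusted p = 0.998) and 0.20 for Pfkfb2 (-0.23 to 0.63, adjusted p = 0.780). For Pfkfb3 it was 0.34, with an interval from -0.89 to 1.57 (adjusted p = 0.852 in limma) that allows a large difference either way. Pfkm was the 1 gene of the 6 whose guides did not overlap, as its 3 sgRNA1 KO libraries (9327 to 10903) lay above its 3 sgRNA2 KO libraries (7342 to 8948), which 3.7% of all genes tested did in either direction. Across all genes, 0 of 15827 passed between the guides in limma, while 474 (2.99%) had an unadjusted p under 0.05. That count became 173 adjusted calls without sgRNA1 KO replicate 3, and none of the 5 genes passed there or in any other alternative.

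Around the phosphofructokinase step, 6 opposing or adjacent enzymes could be tested, of which Fbp1 and Aldoc rose and Tigar fell in limma. Over all genes tested 19.1% rose and 20.2% fell, so nothing is read from this count. Fbp1, whose enzyme fructose-1,6-bisphosphatase removes the phosphate that phosphofructokinase 1 adds, had 281, 113 and 117 normalized counts in the sgRNA1 KO clones and 112, 340 and 44 in the sgRNA2 KO clones, against 28, 8 and 12 in control. It was higher in 6 of 6 KO libraries, with a log2 fold change of 3.19 (SE 0.62, adjusted p = 0.00482 in limma). Its paralog Fbp2 was too low to test, with 8, 4 and 0 counts in the sgRNA1 KO clones and 2, 4 and 2 in the sgRNA2 KO clones, against 0, 0 and 1 in control. Tigar, which breaks down fructose-2,6-bisphosphate, had 413, 652 and 1217 normalized counts in the sgRNA1 KO clones and 1032, 624 and 1586 in the sgRNA2 KO clones, against 1758, 1913 and 1925 in control. It was lower in 6 of 6 KO libraries, with a log2 fold change of -1.16 (SE 0.37, adjusted p = 0.0335 in limma). That call was lost without sgRNA1 KO replicate 2 (adjusted p = 0.0582 in limma), sgRNA2 KO replicate 2 (0.0649) or control replicates 1, 2 or 3 (0.0808, 0.105 and 0.103). Pfkfb1 had 83, 62 and 226 counts in the sgRNA1 KO clones and 197, 103 and 92 in the sgRNA2 KO clones, against 153, 158 and 162 in control. The log2 difference of -0.47 missed the threshold (adjusted p = 0.363 in limma), while without sgRNA1 KO replicate 3 and sgRNA2 KO replicate 1 it was -0.91 and passed (adjusted p = 0.0101).

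Over the rest of glycolysis, 3 of 20 listed genes rose and 4 fell in limma, with a median log2 fold change of -0.21 against -0.01 over all genes tested. Across all genes tested 19.1% rose and 20.2% fell. The lactate dehydrogenase B gene Ldhb (log2 1.39, SE 0.32, adjusted p = 0.00921), the aldolase C gene Aldoc (1.34, SE 0.24, adjusted p = 0.00341) and the hexokinase 1 gene Hk1 (0.64, SE 0.08, adjusted p = 0.00105) rose. The hexokinase 2 gene Hk2 (log2 -1.998, SE 0.63, adjusted p = 0.0304), the lactate transporter gene Slc16a1 (-1.07, SE 0.21, adjusted p = 0.00484) and the neuronal glucose transporter gene Slc2a3 (-0.97, SE 0.14, adjusted p = 0.00169) fell. Gapdh also fell (log2 -0.97, SE 0.20, adjusted p = 0.00672). It is named because it completes the count, and its many processed copies in the genome make its reads hard to assign. Of the genes on either side of phosphofructokinase 1 in the pathway, Gpi1 (log2 0.04, adjusted p = 0.793) and Aldoa (-0.31, adjusted p = 0.183) did not pass. Aldoc, the other aldolase gene listed, rose as given above. The call for Hk2 was lost without any 1 control (adjusted p = 0.0738, 0.101 and 0.0935 in limma without control replicates 1, 2 and 3) and without sgRNA1 KO replicate 2 (0.0533) or sgRNA2 KO replicate 2 (0.0597). The number that fell became 7 without sgRNA1 KO replicate 3, 7 without sgRNA2 KO replicate 1 and 9 without both.

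**Figure D3:**
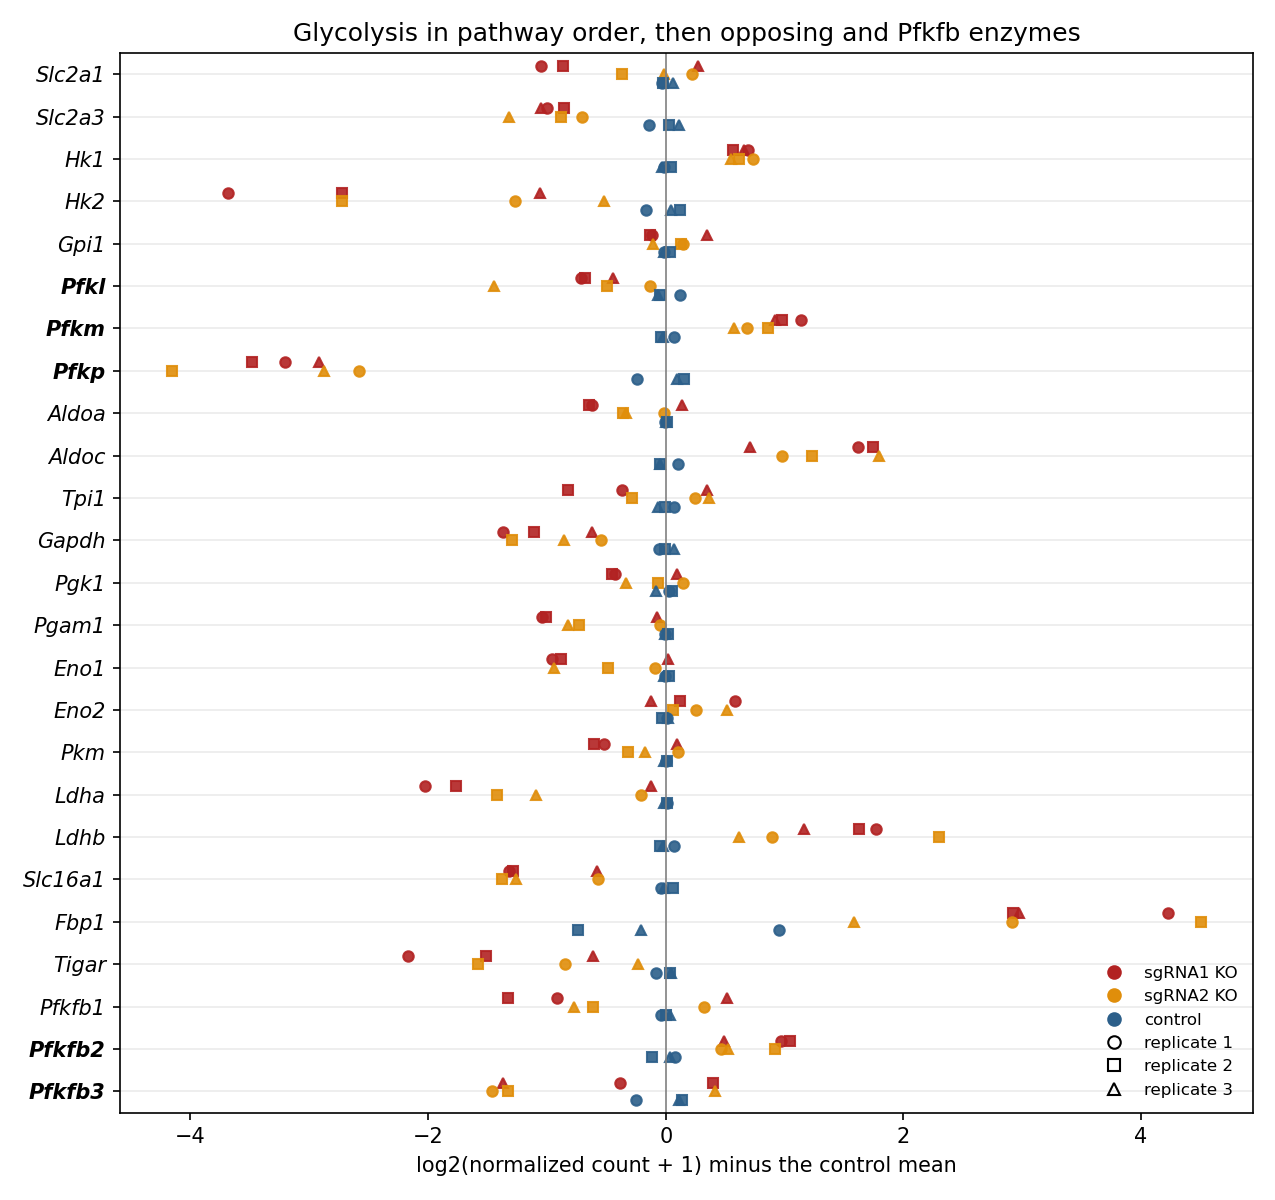
Log2(normalized count + 1) of each library minus the control mean, for glycolysis genes in pathway order, followed by the opposing and Pfkfb enzymes; colour gives the group, shape the replicate, and bold names the phosphofructokinase 1 and Pfkfb genes described. Pfkp lies between -4.16 and -2.58 in KO libraries, below every other gene drawn in 5 of 6 of them, and Pfkm between 0.57 and 1.14.

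Other glycolytic steps with more than 1 isoform gene were examined for a change in makeup, by an exact permutation test of the mean share over 84 divisions into 6 and 3. Of 7 families tested, 5 passed a two-sided p adjusted over the families (adjusted p = 0.0333 each, from p = 0.0238, the smallest this exact test can give). Such a p means only that KO and control shares did not overlap, as the levels of 44.8% of single genes tested also did not. The families were listed with earlier results of these data known, so nothing is read from their count. How common such a difference is among isoform shares of other genes was not examined. Hk2 made up 3.79%, 7.72% and 19.9% of hexokinase level per kilobase in the sgRNA1 KO clones and 16.5%, 7.47% and 28.4% in the sgRNA2 KO clones, against 41.9%, 45.8% and 45.8% in control. Ldhb made up 80.9%, 76.3% and 42.7% of lactate dehydrogenase in the sgRNA1 KO clones and 39.7%, 80.1% and 50.05% in the sgRNA2 KO clones, against 24.3%, 22.7% and 23.3% in control. For neither did KO and control overlap. Aldoc took a larger share of aldolase (83.1 ± 7.41% in KO and 62.8 ± 1.55% in control), Pgam2 of phosphoglycerate mutase (35.8 ± 17.4% and 11.9 ± 1.07%) and Slc16a3 of its pair with Slc16a1 (2.38 ± 1.28% and 0.826 ± 0.0790%; SD, n = 6 KO and 3 control throughout). The level of Slc16a3 itself missed the threshold (log2 0.30, adjusted p = 0.458 in limma), and its partner Slc16a1 was the gene of the pair that fell. Pgam2 is the muscle isoform, and Pgam1 has processed copies that can take its reads.

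The share of the neuronal enolase gene Eno2 (10.4 ± 3.31% in KO and 7.16 ± 0.179% in control, adjusted exact permutation p = 0.143) and that of Slc2a3 beside Slc2a1 (16.5 ± 5.85% in KO and 23.1 ± 1.12% in control, adjusted exact permutation p = 0.139) missed the threshold. The pyruvate kinase pair of Pklr and Pkm was not tested. Without 1 control, or without sgRNA1 KO replicate 3 and sgRNA2 KO replicate 1, none passed, because the smaller designs allow no exact permutation p under 0.0714 with 2 controls or 0.0571 with 4 KO libraries.

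**Figure D4:**
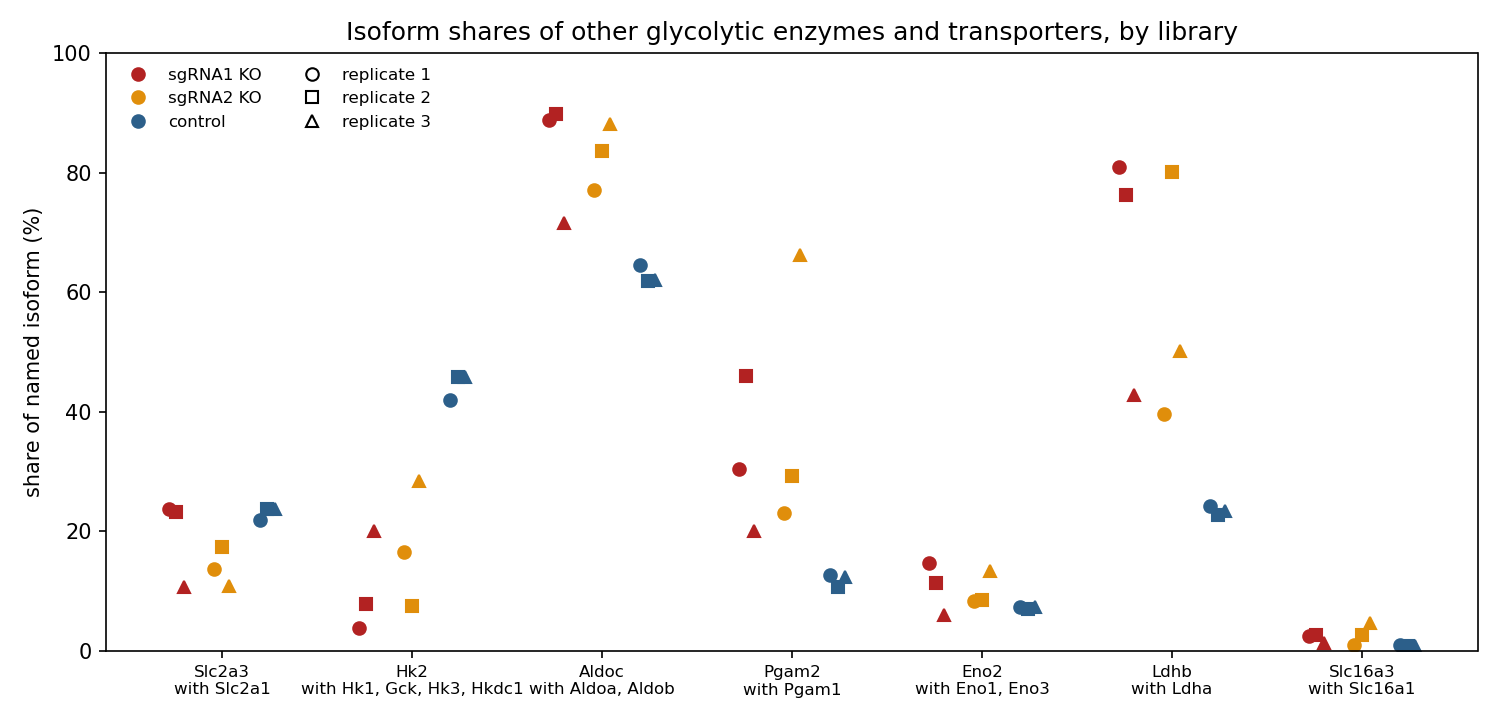
Share (%) of the named isoform in the level per kilobase of merged exon summed over its family, for 7 other glycolytic enzymes and transporters, with 1 point per library of sgRNA1 KO, sgRNA2 KO and control; colour gives the group and shape the replicate. Hk2 lies below control and Aldoc, Pgam2, Ldhb and Slc16a3 above it in all 6 KO libraries, while Eno2 and Slc2a3 overlap.

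Of 17 listed regulators of phosphofructokinase 1 and PFKFB genes or proteins, 3 rose and 3 fell in limma, with a median log2 fold change of -0.01, where 19.1% of all genes tested rose and 20.2% fell. Akt1, a kinase of the growth factor pathway (log2 -0.57, adjusted p = 0.00309), Prkaa1, a catalytic subunit of the energy sensor AMPK (-0.52, adjusted p = 0.00835), and the transcription factor gene Myc (-0.85, adjusted p = 0.0285) fell. Trim21, a ubiquitin ligase gene (0.61, adjusted p = 0.0105), the hypoxia factor gene Epas1 (0.57, adjusted p = 0.0261) and the coactivator gene Ppargc1a (0.39, adjusted p = 0.0389) rose. Myc and Epas1 missed the threshold without any 1 control, Myc also without both libraries nearest to control, and Trim21 without control replicate 2 or 3, and Ppargc1a missed it without any 1 control, without sgRNA1 KO replicate 1 or 3, without sgRNA2 KO replicate 2, without both libraries nearest to control (adjusted p = 0.0572) and with no filter (0.0517). Hif1a, whose protein is the best known inducer of Pfkfb3 and Pfkfb4, had a log2 difference of -0.19 (adjusted p = 0.162 in limma). Of 14 hypoxia targets tested, 5 rose and 3 fell, with a median of 0.32, beside the same 19.1% and 20.2% over all genes. The stress gene Ddit4 (log2 1.56, adjusted p = 0.00116), the Myc antagonist gene Mxi1 (1.51, adjusted p = 0.00398) and the peptide hormone gene Adm (0.97, adjusted p = 0.00319) rose most in limma. The prolyl hydroxylase genes P4ha2 (log2 -2.13, adjusted p = 0.00154), Egln3 (-0.49, adjusted p = 0.0401) and P4ha1 (-0.38, adjusted p = 0.0240) fell in limma. P4ha2 entered the fit through its control values alone, at 4 to 9 in KO libraries and 20 to 29 in control. No count of fallen hypoxia targets is therefore read. P4ha2 was not in the fit without control replicate 2 or with the stricter filter. Egln3 and P4ha1 missed the threshold without any 1 control or with quantile normalization, and Egln3 also without sgRNA1 KO replicate 1 or sgRNA2 KO replicate 2.

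Markers of cell types were read beside these values. The stem cell markers Nes, Sox2, Vim, Olig2, Cd44, Msi1 and Fabp7 were all present in these cells, and Prom1 was low (11.5 in KO and 10 in control). Of the 8 listed, Sox2 rose and Nes, Vim and Cd44 fell in limma. Over all genes tested 19.1% rose and 20.2% fell, and these shares also stand beside the marker counts below. The summed level of the 8 stem cell markers was 221326 to 309089 in KO libraries and 335509 to 380513 in control. Muscle markers were read because Pfkm is named the muscle-type gene, and a link between them was not tested. The 11 listed summed to 626 to 6503 in KO libraries and 77 to 93 in control, and most of the KO sum was Actc1, at 379 to 6159 in KO libraries and 3 to 21 in control. Mybpc1 (13 to 295 in KO and 2 in all controls), Pygm (52 to 161 in KO and 28 to 37 in control) and Des (7 to 29 in KO and 3 to 6 in control) were also above all controls. Tnnt1 (14 to 41 in KO and 7 to 20 in control) and Tnni1 (7 to 18 and 9 to 22) overlapped. Acta1, Ckm and Myh3 overlapped as well. Since Mybpc1 and Des entered the fit through their KO values alone, and Actc1 averaged only 11 in control, no count of risen markers is read. The defining muscle factors stayed at or near 0, with Myog at 1 to 3 in KO libraries and 0 in all controls and Myod1 at 0 to 3 in KO libraries and 2 to 5 in control. Astrocyte markers summed to 87612 to 210950 in KO libraries and 70753 to 75729 in control, with 2 of 7 risen (Slc1a2 and Glul). Without Glul the sums overlapped, at 53917 to 156551 in KO libraries and 60049 to 64254 in control, and Gfap stood at 373 to 2118 in 4 KO libraries and 16039 and 23509 in the other two, against 3348 to 4827 in control. Neuron markers (47435 to 125607 in KO and 42747 to 44048 in control, 1 of 4 risen) and oligodendrocyte markers (9641 to 27174 in KO and 4236 to 5637 in control, 1 of 3 risen) were also higher in sum in all KO libraries. Most of the neuron sum was Map2, and without it the neuron sums overlapped, at 292 to 1938 in KO libraries and 316 to 435 in control. Without Cnp the oligodendrocyte sums were 368 to 7025 in KO libraries and 162 to 296 in control. Endothelial markers summed to 24 to 81 in KO and 101 to 127 in control, the pericyte markers to 2 to 8 in KO and 58 to 76 in control (nearly all of it Rgs5, at 1 to 5 in KO and 54 to 75 in control), and microglia markers to 17 to 57 in KO and 19 to 22 in control. The part of these markers in the phosphofructokinase values was not tested.

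In position, Pfkm (ENSMUSG00000033065, chromosome 15, 98092589 to 98132451 in mm10) ends 1.59 Mb before the start of Gpd1, the targeted gene. Of 37 tested genes that start within 1 Mb of Pfkm, 6 rose and 9 fell in limma (40.5% in all, against 39.3% of all genes tested), with a median log2 fold change of -0.11. Around Gpd1 8 of 47 rose and 10 fell, with a median of 0.04. Pfkp (ENSMUSG00000021196, chromosome 13, 6579768 to 6648777) had 2 tested neighbours within 1 Mb, Klf6 (log2 -0.66) and Pitrm1 (log2 -0.45), and both fell in limma. Within 5 Mb of Pfkp 2 of 19 rose and 8 fell, with a median of -0.45. Pfkl (ENSMUSG00000020277) lies on chromosome 10 from 77986947 to 78010083, Pfkfb2 (ENSMUSG00000026409) on chromosome 1 from 130689182 to 130729253, Pfkfb3 (ENSMUSG00000026773) on chromosome 2 from 11471433 to 11554077 and Pfkfb4 (ENSMUSG00000025648) on chromosome 9 from 108991778 to 109032228. Within 1 Mb, 2 of 21 genes rose and 5 fell around Pfkl, 1 of 11 rose and 5 fell around Pfkfb2, 2 of 7 rose and 1 fell around Pfkfb3, and 13 of 47 rose and 7 fell around Pfkfb4. As shares, 33.3% to 54.5% of the neighbours of these 4 genes passed in either direction.

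Some exons of these genes are shared with other genes, and the strand setting of the read counting is not given in the sources used here. Pfkp shares 748 exon bases with Pitrm1 on the opposite strand, and Pitrm1 stood at 5291 ± 964 normalized counts in KO (SD, n = 6) and 7126 ± 136 in control (SD, n = 3), so it differed far less than Pfkp. Pfkm shares 341 bases with Gm26513 on its own strand (51.7 ± 12.1 in KO and 22.3 ± 4.73 in control) and 18 with Senp1 on the opposite strand. Pfkfb2 shares 1262 bases with Gm29427 on its own strand, which had 1 to 3 counts in KO libraries and 0 in control, and 154 with Yod1 on the opposite strand. Reads in these stretches could not be assigned with certainty.

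**Figure D5:**
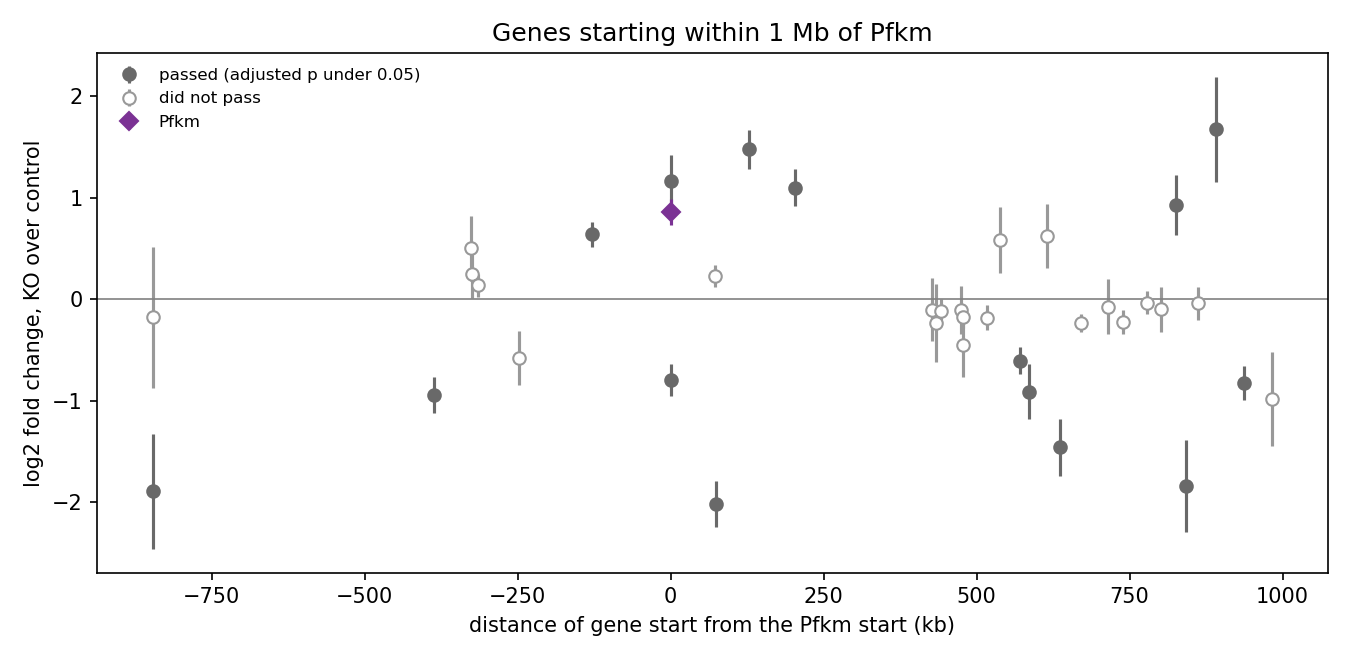
Log2 fold change of KO over control in limma, with SE as vertical bars, of the 37 tested genes that start within 1 Mb of Pfkm, by distance (kb) of their start from that of Pfkm; filled points passed an adjusted p of 0.05, and Pfkm, which was not tested, is the diamond at 0.86. Genes that rose (6) and fell (9) lie on both sides of Pfkm.

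The genes whose profile over the 9 libraries was most like that of Pfkp were found by the root-mean-square difference in log2(value + 1) after subtraction of the control mean, among 11550 genes with a mean of at least 50. They were Igfbpl1 (0.29), Ltbp1 (0.36), Sstr2 (0.41), Tnfrsf12a (0.41) and Akap12 (0.42), which encode an insulin-like growth factor binding protein, a latent TGF-beta binding protein, a somatostatin receptor, the TWEAK receptor and a scaffold of protein kinase A. Igfbpl1 stood at 40.2 ± 14.0 normalized counts in KO (SD, n = 6) and 356 ± 35.5 in control (SD, n = 3). For Pfkm the nearest profiles included those of Tmem203 (0.04), Acaa1a (0.09), Lpcat1 (0.09) and Nxt2 (0.09), where Acaa1a encodes a peroxisomal thiolase and Lpcat1 a lysophosphatidylcholine acyltransferase. Tmem203, a membrane protein gene, stood at 392 ± 52.0 in KO and 213 ± 4.51 in control (SD, n = 6 and 3). The values measure likeness of profiles in these libraries alone.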

How the data were processed

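The authors' deposited table gives 1 score per gene and library, a read count divided by a size factor and rounded to a whole number, as inferred from its values and its name. The submitters' processing notes name the aligner STAR 2.4.1d, the counter featureCounts, the package DESeq2 and the genome build mm10, and the annotation release is not given in the sources used here. A test on raw counts was therefore not made. All values were taken as log2(value + 1), which understates the change of low genes. Genes averaging 10 or more over all 9 libraries (15827 of 21899) entered the fit with limma 3.58.1 in R 4.3.3 (mean-variance trend, two-sided, Benjamini-Hochberg adjusted p under 0.05 over all genes tested). KO against control used 6 and 3 libraries, and the guides were compared in 1 fit with 3 groups. The totals of 39781901 to 42975283 are sums of normalized counts, so they do not show the raw depth of each library, which sets counting error.

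Exon lengths and positions came from GENCODE M21, which matched 21817 (99.6%) of the genes. Levels per kilobase divide by merged exon length, with the longest coding transcript and no length correction as alternatives. Promoter windows of all 6 genes were matched in RefSeq (GRCm38.p6). Protein sequences were not used here. Isoform families were tested by exact permutation over the 84 ways to take 3 of 9 libraries.

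The 6 genes, the lists and the markers were chosen with earlier results of these data known. The text names the 6 genes, Gpd1, Pfkfb1, Fbp1, Fbp2 and Tigar, up to 3 genes per list and direction with the largest change that passed, and the 5 nearest profiles of Pfkp and Pfkm, of which 1 for Pfkm is not reported here. Gapdh, Gpi1, Aldoa, Hif1a, the overlapping genes and the markers were named after their values were seen, as were the markers left out of sums. The fit was tested on simulated data. Other settings tried were a filter at 50 or none, a pseudocount of 0.5 or 5, a replicate block, weights for the variance of each group, rescaling by median of ratios, quantile normalization, only the 6 KO libraries for the guides, each library left out in turn, both libraries nearest to control left out, and a window of 5 Mb. Python 3.11.15 ran the remaining steps (scipy 1.17.1, matplotlib 3.10.9, pandas 2.3.3, numpy 2.4.6).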

Additional observations from a re-analysis of the deposited data

How the results depend on the processing

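The log2 differences of the 5 phosphofructokinase and Pfkfb genes tested kept their direction between KO and control in all 18 alternatives each, from 0.80 to 0.95 for Pfkm, -3.43 to -3.01 for Pfkp, -0.83 to -0.49 for Pfkl, 0.67 to 0.87 for Pfkfb2 and -0.83 to -0.22 for Pfkfb3. For Pfkm, Pfkp, Pfkl and Pfkfb2, whose groups did not overlap, leaving out libraries could not reverse the sign. The other filters, the variance weights and the replicate block left these differences unchanged by construction. For Pfkfb3 the kept sign is that of the mean, as its KO libraries lay on both sides of control. The share of Pfkm, higher by 18.9 percentage points in KO, was higher by 28.2 by transcript length and 31.8 with no length correction, and that of Pfkp, at -7.50, was -16.3 and -20.0; with 1 library left out the Pfkp value ran from -8.29 to -6.99. The Pfkfb4 share difference of -0.22 was -0.14 with no length correction. The Pfkfb1 share difference of 0.59 reversed to -2.53 without the 2 libraries nearest to control, to -0.76 without sgRNA1 KO replicate 3 and to -0.55 without sgRNA2 KO replicate 1 (range with 1 library left out -0.76 to 1.54).

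The 6227 genes called between KO and control in limma ranged from 2759 to 7609 with 1 library left out, and were 3899, 2759 and 2987 without control replicates 1, 2 and 3. Between the guides the 0 calls became 30 without the 2 libraries and 0 to 173 with 1 library left out. In glycolysis, variance weights gave 5 risen and 8 fallen, leaving out the 2 libraries 9 fallen, and leaving out 1 library 3 to 4 risen and 3 to 7 fallen. The isoform families that passed went from 5 to 0 without the 2 libraries and ranged from 0 to 6 with 1 library left out, where fewer libraries limit the exact test. Of genes near Pfkp 52.6% were called within 5 Mb against 100% within 1 Mb, and near Pfkfb2 36.2% against 54.5%. Where no construction of the alternative shows it, the cause was not tested.

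Replicate numbers did not pair the libraries: the correlations of same-numbered libraries ran from -0.345 to 0.332. With a replicate block 5786 genes were called between KO and control and 0 between the guides, and glycolysis had 3 risen and 4 fallen; of the genes named, Egln3 and Ppargc1a lost their call. Scaling alternatives moved the median of all genes by less than 0.1 on the log2 scale. The values came already scaled, with median-of-ratios factors of 1.005 to 1.012, so rescaling could move little. With quantile normalization the log2 differences were 0.95 for Pfkm, -3.17 for Pfkp, -0.52 for Pfkl, 0.84 for Pfkfb2 and -0.52 for Pfkfb3. In the main fit they were 0.86, -3.20, -0.65, 0.74 and -0.62. Of the tested values of single genes and families, 489 kept their direction and their side of the threshold, 59 lost the call, 2 gained it and 5 changed sign with no call in either setting. Those 5 were guide differences with 1 library left out: Pfkl (0.08) at -0.01 without sgRNA1 KO replicate 3 and -0.30 without sgRNA2 KO replicate 3, Pfkp (0.00) at -0.14 without sgRNA1 KO replicate 3 and -0.47 without sgRNA2 KO replicate 2, and Pfkfb3 (0.34) at -0.089 without sgRNA1 KO replicate 2. With 1 library left out their ranges were -0.30 to 0.36 for Pfkl, -0.47 to 0.32 for Pfkp and -0.089 to 0.94 for Pfkfb3.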
